A study of Saccharomyces cerevisiae with 6 samples.

Results

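The tRNAs for glutamine, glutamate and lysine are described here as measured by tRNA-HySeq in *paf1∆*, *rtf1∆* and wild type yeast. All sequences of these 3 amino acids in the count tables were taken by their names, which gave 10 of the 70 tRNA sequences. tRNA-HySeq sequences short fragments made by partial hydrolysis of tRNA purified by size on a gel. Fragments of 19 to 35 nucleotides were selected. Each genotype had 2 libraries, and 6 libraries were compared in all. The *paf1∆* strain is DAS516 and the *rtf1∆* strain is DAS549. In both, the deleted gene is replaced by *HIS3*, and both are MATα with the alleles ade2-1, ura3-1 and trp1-1 as well as his3-11,15 and can1-100 and a mutation of *LEU2*. The wild type is labelled DAS217, for which no genotype was given in the sources used here, so its background may differ from that of the deletion strains. All strains were grown to log phase at 30 °C in YEP with 2% dextrose, to an A600 of 0.6 to 0.8. Nothing in the labels says whether the 2 libraries of a genotype came from separate cultures, and the p-values therefore measure only the spread between these libraries, which may be technical.

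Paf1 and Rtf1 are subunits of the PAF1 complex, which travels with RNA polymerase II and influences histone modification and elongation. tRNA genes are transcribed by RNA polymerase III. Glutamine, glutamate and lysine each have a pair of codons ending in A or G, and each is served by one tRNA whose anticodon starts with U and one whose anticodon starts with C. The U at the wobble position of tRNA-Gln(UUG), tRNA-Glu(UUC) and tRNA-Lys(UUU) carries a thiolated, methoxycarbonylmethyl-modified uridine in yeast, which helps the decoding of codons ending in A. The C-starting tRNAs read the codons ending in G. Modification was not measured, and the comparison of both anticodons within each amino acid asks whether the deletions shifted the balance between them.

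The libraries had 7906642 to 8259323 reads aligned to tRNA in *paf1∆*, 588048 to 771121 in *rtf1∆* and 519302 to 1435676 in wild type. These were 87.4 to 87.9% of all reads in *paf1∆*, 5.64 to 6.08% in *rtf1∆* and 6.43 to 6.76% in wild type. All 70 reference sequences were listed as 3 nucleotides longer in the *paf1∆* files than in the other files. Genotype and alignment reference therefore cannot be told apart in any comparison with *paf1∆*. Set 2 of the library names holds both *rtf1∆* libraries and wild type replicate 2, set 1 holds wild type replicate 1, and no set is named for *paf1∆*. No member had fewer than 812 reads in any library, and within each genotype the spread between replicates was above counting error. The chi-square per degree of freedom over the 70 sequences was 23963 in *paf1∆*, 162 in *rtf1∆* and 1053 in wild type. This statistic rises with read depth. Levels are given as CPM, the read counts brought to one library size by TMM scaling, which equalizes the bulk of the tRNAs. They are relative to the rest of the tRNA pool, so a lower level of 1 tRNA and higher levels of the others cannot be told apart.

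The RefSeq annotation of the R64 assembly has 275 nuclear tRNA genes with 70 distinct unspliced sequences. Of these genes, 10 encode tRNA-Gln, 16 tRNA-Glu and 21 tRNA-Lys, and they hold 10 distinct sequences. For all 6 anticodon types the number of distinct annotated sequences equals the number of rows in the count tables. The mature sequences are printed to show how many bases separate the anticodons of an amino acid and the sequences of an anticodon. The anticodon is in capitals, and the locus of 1 gene is given for each.
tRNA-Gln(CUG), the only gene, YNCM0036C, chrXIII:808246-808317, minus strand: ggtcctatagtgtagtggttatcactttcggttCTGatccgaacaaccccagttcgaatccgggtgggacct
tRNA-Gln(UUG), 7 genes, such as YNCC0010C, chrIII:168301-168372, minus strand: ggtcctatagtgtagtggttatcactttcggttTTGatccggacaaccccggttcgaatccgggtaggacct
tRNA-Gln(UUG), 1 gene, YNCE0008C, chrV:131082-131153, minus strand: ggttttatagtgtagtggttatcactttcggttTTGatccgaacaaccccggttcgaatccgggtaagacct
tRNA-Gln(UUG), 1 gene, YNCB0013W, chrII:350827-350898, plus strand: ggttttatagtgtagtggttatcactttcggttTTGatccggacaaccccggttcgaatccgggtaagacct
tRNA-Glu(CUC), 2 genes, such as YNCD0021C, chrIV:1017207-1017278, minus strand: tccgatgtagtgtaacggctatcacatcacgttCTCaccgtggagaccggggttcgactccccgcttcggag
tRNA-Glu(UUC), 13 genes, such as YNCB0018W, chrII:645167-645238, plus strand: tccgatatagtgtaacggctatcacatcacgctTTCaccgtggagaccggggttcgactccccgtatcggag
tRNA-Glu(UUC), 1 gene, YNCM0010W, chrXIII:290801-290872, plus strand: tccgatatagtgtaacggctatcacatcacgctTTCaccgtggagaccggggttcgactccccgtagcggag
tRNA-Lys(CUU), 14 genes, such as YNCC0009C, chrIII:151284-151356, minus strand: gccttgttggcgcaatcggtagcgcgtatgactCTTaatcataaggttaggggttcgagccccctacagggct
tRNA-Lys(UUU), 7 genes, such as YNCD0003W, chrIV:359577-359672, plus strand: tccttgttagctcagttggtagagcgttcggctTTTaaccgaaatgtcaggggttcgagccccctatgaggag

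In the glutamine family, tRNA-Gln(CUG) and the tRNA-Gln(UUG) sequence with 7 genes have the same first 33 bases and differ at 4 of 72 positions. These are C34T, A42G, A51G and G66A, with positions counted from 1 at the 5′ end and the base of tRNA-Gln(CUG) given first. The 2 single-gene tRNA-Gln(UUG) sequences differ from each other at 1 position, A42G. In the glutamate family, tRNA-Glu(CUC) differs at 5 positions from the tRNA-Glu(UUC) sequence with 13 genes. The 2 tRNA-Glu(UUC) sequences differ at 1 position, T67G, near the 3′ end, with the base of the 13-gene sequence first. The lysine tRNAs are the least alike, with 20 differences between tRNA-Lys(CUU) and tRNA-Lys(UUU), which share no run longer than 18 bases. All 7 tRNA-Lys(UUU) genes have an intron of 23 bases and give the same mature tRNA of 73 bases. The listed lengths of 96 in the *rtf1∆* and wild type files show that the unspliced form served as the reference. The 7 genes fall into 2 unspliced sequences that differ at base 5 of the intron, C5T, and both introns are shown with that base in capitals.
intron of 6 tRNA-Lys(UUU) genes: agcgCatttgcttaagcaaggat
intron of 1 tRNA-Lys(UUU) gene, YNCG0029C, chrVII:700953-701048, minus strand: agcgTatttgcttaagcaaggat

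Short fragments cannot always be assigned to 1 of these sequences. Of the windows of 19 bases, 72.2% of those in tRNA-Gln(CUG), 66.7% in tRNA-Glu(CUC) and 100% in tRNA-Lys(CUU) were found in no other distinct unspliced tRNA sequence. With windows of 35 bases all 3 reached 100%. The share was 11.1% of the 19-base windows in both tRNA-Glu(UUC) sequences and 15.8% with 35 bases. In the tRNA-Gln(UUG) sequences it lay between 0 and 35.2% with 19 bases. In both tRNA-Lys(UUU) sequences, which differ only in the intron, it was 24.4% with 19 bases, and every such window covers the variable intron base. The windows were taken from the annotated genes, so these shares do not cover the 3 further nucleotides of the *paf1∆* references. How the authors' alignment placed reads that match several sequences is not given in the sources used here. The count tables name the sequences of an anticodon by number, and which number belongs to which printed sequence could not be settled for tRNA-Gln(UUG), tRNA-Glu(UUC) or tRNA-Lys(UUU). For the 3 C-starting anticodons, with 1 row and 1 sequence each, it is settled.

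**Figure D1:**
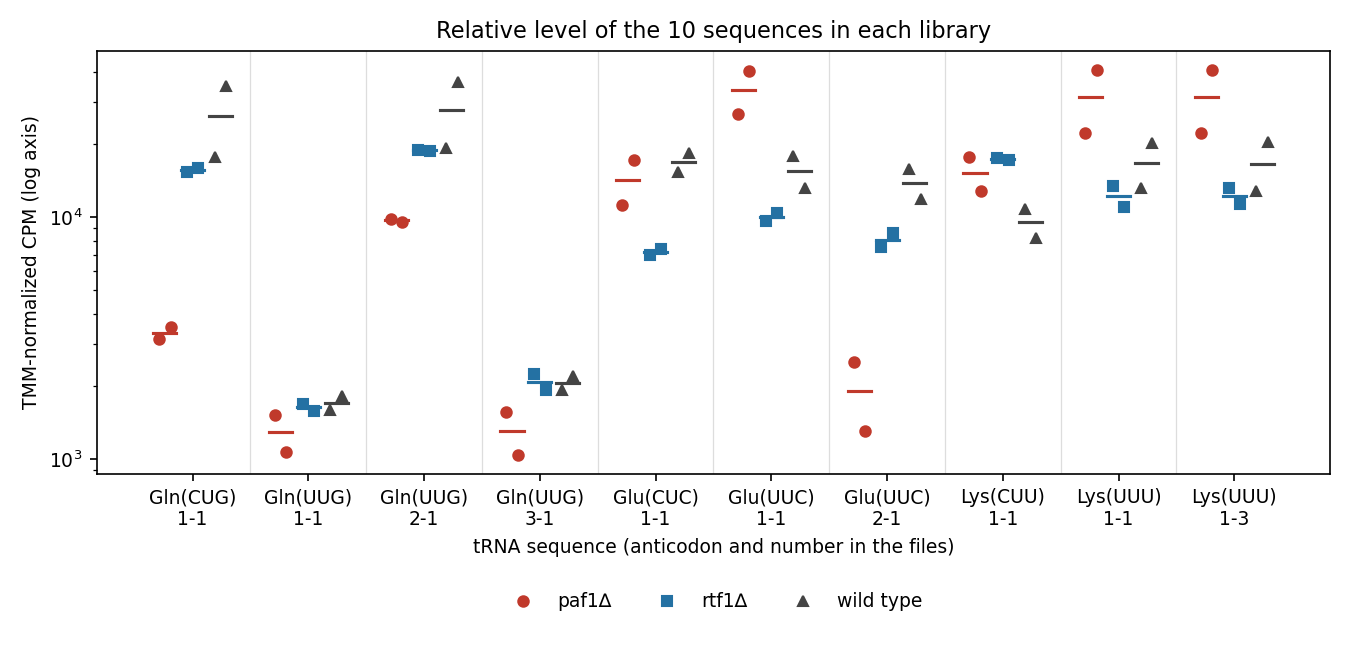
TMM-normalized CPM on a log axis for each of the 10 sequences, with 1 point per library and a bar at the mean of *paf1∆*, *rtf1∆* and wild type. The *paf1∆* libraries lie below both other genotypes for tRNA-Gln(CUG), at 3149 and 3524 CPM, and for tRNA-Glu(UUC) sequence 2-1, at 1310 and 2515 CPM.

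Among the single sequences, tRNA-Gln(CUG) and the reads counted on 1 of the tRNA-Glu(UUC) sequences fell in *paf1∆*, and tRNA-Glu(CUC) fell in *rtf1∆*. Summed over its 2 sequences, tRNA-Glu(UUC) was not called in *paf1∆* (log2 fold change 0.12, edgeR adjusted p = 0.842 over the anticodon types). tRNA-Gln(CUG) and that tRNA-Glu(UUC) sequence were the 2 of 10 members past the threshold in *paf1∆* against wild type, both lower. Of all 70 sequences, 10% were called lower and 8.57% higher. In *rtf1∆* against wild type 1 of 10 members was called, lower, beside 5.71% of all sequences. The test was edgeR's quasi-likelihood test with Benjamini-Hochberg adjustment over all 70 sequences at 0.05. The median log2 fold change of the members was -0.49 in *paf1∆* and -0.50 in *rtf1∆*, against -0.0066 and -0.063 over all sequences. The libraries of *paf1∆* and wild type did not overlap for 4 members that were higher and 5 that were lower, beside 64.3% of all sequences. Those of *rtf1∆* and wild type did not overlap for 1 member above and 5 below wild type, beside 55.7% of all sequences. The *rtf1∆* changes differed with the wild type library used. Wild type replicate 2 is the library of the same named set. Against it alone, the log2 fold changes of the C-starting types were -1.13 for tRNA-Gln(CUG), -1.33 for tRNA-Glu(CUC) and 1.11 for tRNA-Lys(CUU). Against wild type replicate 1 alone they were -0.18, -1.10 and 0.69. How many of all 70 sequences pass against a lone wild type library was not worked out, so no members are counted there.

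The largest difference of the glutamine tRNAs was in tRNA-Gln(CUG), which reads the codon CAG and has a single gene. It had 3149 and 3524 CPM in the *paf1∆* libraries, 15428 and 15951 in *rtf1∆*, and 17803 and 34858 in wild type. Both *paf1∆* libraries lay far below all the others, and the wild type libraries differed from each other more than the *rtf1∆* libraries did. The mean was 3337 ± 265 CPM in *paf1∆* and 26330 ± 12060 in wild type (SD, n = 2 each), a log2 fold change of -3.14 (SE 0.54, edgeR adjusted p = 0.0113). The call was lost without *paf1∆* replicate 1 (log2 fold change -2.90, adjusted p = 0.0593) and without wild type replicate 2 (-2.59, adjusted p = 0.156). The *rtf1∆* mean was 15689 ± 370 CPM (SD, n = 2), and the log2 fold change of -0.75 against wild type (SE 0.40) did not pass the test, with an edgeR adjusted p of 0.217.

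tRNA-Gln(UUG), which reads CAA, was counted mostly on sequence 2-1. This sequence had 9829 and 9577 CPM in *paf1∆*, 19039 and 18876 in *rtf1∆*, and 19292 and 36151 in wild type. The *paf1∆* libraries were again the lowest, and wild type replicate 2 again stood above wild type replicate 1. The log2 fold change was -1.68 in *paf1∆* against wild type (SE 0.50), with an edgeR adjusted p of 0.0579, and -0.55 in *rtf1∆* against wild type (SE 0.40, adjusted p = 0.363). Sequence 1-1 had 1516 and 1069 CPM in *paf1∆*, 1695 and 1583 in *rtf1∆*, and 1596 and 1820 in wild type. Sequence 3-1 had 1574 and 1044 CPM in *paf1∆*, 2242 and 1930 in *rtf1∆*, and 1928 and 2207 in wild type. Both were low in every library, and the wild type replicates were close to each other for these 2 sequences although they were not for sequence 2-1. In *paf1∆* against wild type the log2 fold changes were -0.58 (SE 0.34, edgeR adjusted p = 0.261) and -0.84 (SE 0.36, adjusted p = 0.169).

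Summed over the amino acid, glutamine tRNA had 16067 and 15214 CPM in *paf1∆*, 38404 and 38340 in *rtf1∆*, and 40619 and 75036 in wild type. It fell in *paf1∆* against wild type, with a log2 fold change of -2.05 (SE 0.44, edgeR adjusted p = 0.0209 over 22 amino acid totals), and was the 1 of the 3 amino acids called, beside 31.8% of all totals. Without wild type replicate 1 the adjusted p was 0.0773 and without wild type replicate 2 it was 0.119, and the call was lost. For *rtf1∆* the log2 fold change against wild type was -0.59 (SE 0.32, adjusted p = 0.214).

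Within glutamine tRNA, the C-starting anticodon took 19.6 and 23.2% of the reads in *paf1∆*, 40.2 and 41.6% in *rtf1∆*, and 43.8 and 46.5% in wild type. The 95% Wilson intervals of such shares were at most 0.757 percentage points to either side, and they cover counting error only, because amplified reads are not independent molecules. The *paf1∆* libraries stood apart from the other 4, and the replicates of each genotype lay close together. The single tRNA-Gln(CUG) gene is 10% of the glutamine genes, so its share of the reads was above its share of the genes in all 6 libraries. Fragments within its first 33 bases also match the tRNA-Gln(UUG) sequence with 7 genes, and how such reads were placed is not given. The read share is therefore not a clean measure of this anticodon. The log2 ratio of tRNA-Gln(CUG) to tRNA-Gln(UUG) was -2.04 and -1.73 in *paf1∆*, -0.57 and -0.49 in *rtf1∆*, and -0.36 and -0.20 in wild type. Its change in *paf1∆* against wild type was -1.60 (SE 0.57), with an edgeR adjusted p of 0.0658 over 9 anticodon pairs. The change in *rtf1∆* against wild type was -0.25 (SE 0.38, adjusted p = 0.864). The ratio of tRNA-Gln(CUG) to sequence 2-1 alone was 0.320 and 0.368 in *paf1∆*, 0.810 and 0.845 in *rtf1∆*, and 0.923 and 0.964 in wild type.

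**Figure D2:**
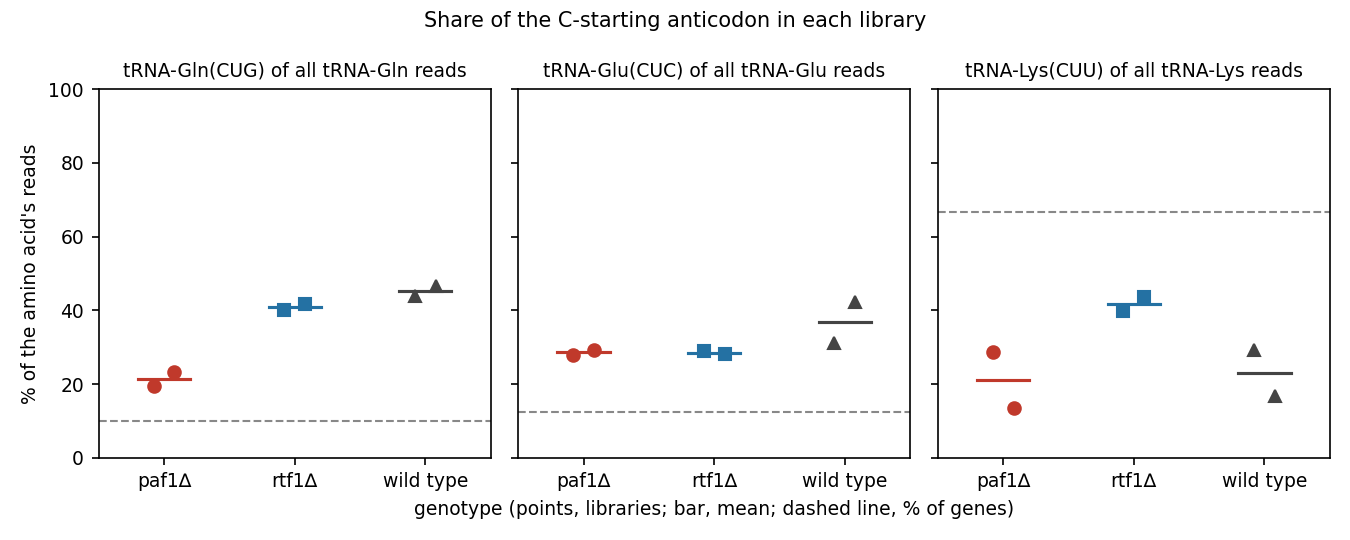
Percentage of the reads of glutamine, glutamate and lysine tRNA that were counted on the C-starting anticodon, with 1 point per library, a bar at the mean of the 2 libraries, and a dashed line at the percentage of the genes. The glutamine share is 19.6 and 23.2% in *paf1∆* and at least 40.2% in the other 4 libraries, whereas the lysine share varies between 13.6 and 43.5%.

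Among the glutamate tRNAs, the reads counted on 1 of the 2 tRNA-Glu(UUC) sequences fell in *paf1∆*, and tRNA-Glu(CUC) fell in *rtf1∆*. tRNA-Glu(UUC) reads GAA and tRNA-Glu(CUC) reads GAG. Sequence 2-1 of tRNA-Glu(UUC) had 2515 and 1310 CPM in *paf1∆*, 7503 and 8590 in *rtf1∆*, and 15866 and 11862 in wild type. The 3 genotypes did not overlap, with *paf1∆* lowest and wild type highest. The reads counted on it fell in *paf1∆* against wild type, with a log2 fold change of -3.05 (SE 0.51, edgeR adjusted p = 0.0113). Means were 1913 ± 852 CPM in *paf1∆* and 13864 ± 2831 in wild type (SD, n = 2 each). The call was lost without wild type replicate 2 (log2 fold change -3.25, adjusted p = 0.156). For *rtf1∆* against wild type the log2 fold change was -0.78 (SE 0.36, adjusted p = 0.161).

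Sequence 1-1 of tRNA-Glu(UUC) had 26846 and 40279 CPM in *paf1∆*, 9666 and 10376 in *rtf1∆*, and 17938 and 13166 in wild type. Here the *paf1∆* libraries were the highest and the *rtf1∆* libraries the lowest. The log2 fold change was 0.96 in *paf1∆* against wild type (SE 0.51, edgeR adjusted p = 0.219) and -0.63 in *rtf1∆* against wild type (SE 0.37, adjusted p = 0.224). As a share of the tRNA-Glu(UUC) reads, sequence 2-1 made up 8.57 and 3.15% in *paf1∆*, 43.7 and 45.3% in *rtf1∆*, and 46.9 and 47.4% in wild type. The 4 libraries aligned to the shorter references were thus close to an even split, and the *paf1∆* libraries, which were aligned to references 3 nucleotides longer, were not. The 2 sequences differ only at position 67 of 72, near the 3′ end, and the part of the longer reference in this split was not tested. As 13 genes have one sequence and 1 gene the other, the split is not read as a level of either sequence. Summed over both sequences, tRNA-Glu(UUC) had 29360 and 41589 CPM in *paf1∆*, 17169 and 18965 in *rtf1∆*, and 33804 and 25028 in wild type, and *paf1∆* and wild type overlapped. The log2 fold change of this sum in *paf1∆* against wild type was 0.12 (SE 0.44, edgeR adjusted p = 0.842 over the anticodon types).

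**Figure D3:**
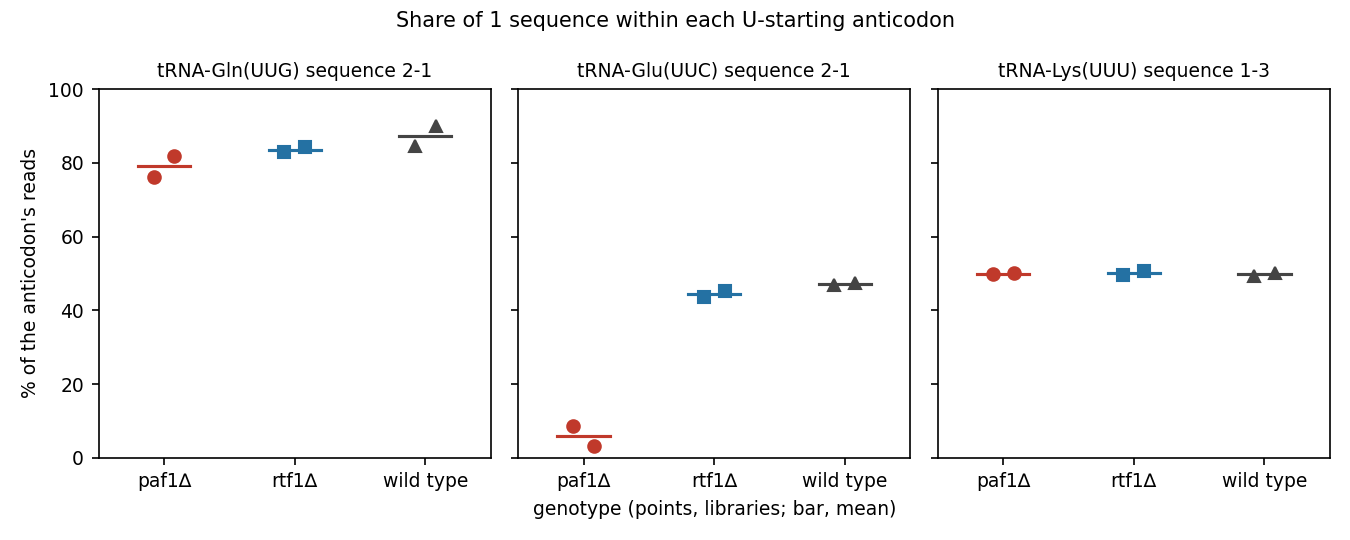
Percentage of the reads of each U-starting anticodon that were counted on 1 of its sequences, with 1 point per library and a bar at the mean. tRNA-Glu(UUC) sequence 2-1 lies at 3.15 and 8.57% in *paf1∆* and between 43.7 and 47.4% in *rtf1∆* and wild type, tRNA-Lys(UUU) sequence 1-3 near 50% in all 6 libraries, and tRNA-Gln(UUG) sequence 2-1 between 76.1 and 89.98%.

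tRNA-Glu(CUC) had 11290 and 17287 CPM in *paf1∆*, 7014 and 7383 in *rtf1∆*, and 15378 and 18388 in wild type. The *rtf1∆* libraries were below the other 4, and *paf1∆* overlapped with wild type. It fell in *rtf1∆* against wild type, with means of 7199 ± 260 CPM in *rtf1∆* and 16883 ± 2128 in wild type (SD, n = 2 each) and a log2 fold change of -1.23 (SE 0.37, edgeR adjusted p = 0.0403). The call was lost without *rtf1∆* replicate 1 (-1.16, adjusted p = 0.893), without *rtf1∆* replicate 2 (-1.27, adjusted p = 0.816) and in 5 of 8 other settings. Among those 8 settings, the one without the count filter repeated the main fit. In *paf1∆* against wild type the log2 fold change was -0.39 (SE 0.47, adjusted p = 0.554).

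The glutamate total was 40650 and 58877 CPM in *paf1∆*, 24183 and 26348 in *rtf1∆*, and 49182 and 43416 in wild type. *rtf1∆* was the lowest, with a log2 fold change against wild type of -0.87 (SE 0.31) and an edgeR adjusted p of 0.0608. In *paf1∆* against wild type it was -0.05 (SE 0.39, adjusted p = 0.947). None of the 3 totals was called in *rtf1∆* against wild type, where 1 of them, glutamate, had an unadjusted p under 0.05 and was called by DESeq2, and 4.55% of all totals were called. The C-starting share of glutamate reads was 27.8 and 29.4% in *paf1∆*, 29.0 and 28.02% in *rtf1∆*, and 31.3 and 42.4% in wild type. The 4 deletion libraries lay within a narrow range, and the wild type libraries differed from each other by more than that range. tRNA-Glu(CUC) has 2 of the 16 glutamate genes, 12.5%. The change of the log2 ratio of tRNA-Glu(CUC) to tRNA-Glu(UUC) was -0.53 in *paf1∆* (SE 0.58, adjusted p = 0.533) and -0.54 in *rtf1∆* (SE 0.42, adjusted p = 0.864), each against wild type by the edgeR interaction test. With only the most counted sequence of each anticodon, the change in *paf1∆* was -1.36 (adjusted p = 0.0613).

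None of the 3 lysine sequences passed edgeR's test in either deletion with all libraries, nor DESeq2's, and 1, tRNA-Lys(CUU) in *rtf1∆*, had an unadjusted p under 0.05. tRNA-Lys(CUU), which reads AAG, had 17792 and 12797 CPM in *paf1∆*, 17635 and 17247 in *rtf1∆*, and 10815 and 8225 in wild type. Both deletions lay above wild type without overlap. The log2 fold change was 0.50 in *paf1∆* against wild type (SE 0.43, edgeR adjusted p = 0.411) and 0.87 in *rtf1∆* against wild type (SE 0.38, adjusted p = 0.139). The *rtf1∆* change passed without wild type replicate 1 (1.11, adjusted p = 0.00304) and without wild type replicate 2 (0.69, adjusted p = 0.0167), where the *rtf1∆* libraries alone gave the spread. It did not pass without *rtf1∆* replicate 1 (adjusted p = 0.893), without *rtf1∆* replicate 2 (adjusted p = 0.816) or in any of the 8 other settings with all libraries. Among those 8 settings, the one without the count filter repeated the main fit. tRNA-Lys(UUU), which reads AAA, is given as the sum of its 2 sequences. They differ at 1 intron base only, and reads that do not cover it match both. Their counts could not be told from an even split in any library (smallest adjusted exact binomial p = 0.339 over 6 libraries). That test takes reads as independent. As 6 genes have one intron and 1 gene the other, the split is not read as a level of either sequence. The sum was 44507 and 81277 CPM in *paf1∆*, 26689 and 22391 in *rtf1∆*, and 26013 and 40833 in wild type. The *paf1∆* libraries were the highest, and *paf1∆* replicate 2 lay well above replicate 1. For the sum, the log2 fold change was 0.77 in *paf1∆* against wild type (SE 0.56) and -0.45 in *rtf1∆* against wild type (SE 0.35), with edgeR adjusted p-values of 0.321 and 0.389 over the anticodon types.

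The lysine total was 62299 and 94074 CPM in *paf1∆*, 44324 and 39639 in *rtf1∆*, and 36828 and 49057 in wild type. Its log2 fold change was 0.71 in *paf1∆* against wild type (SE 0.42, edgeR adjusted p = 0.241) and -0.03 in *rtf1∆* against wild type (SE 0.31, adjusted p = 0.959). The *paf1∆* value was 1.13 without *paf1∆* replicate 1 and 0.29 without *paf1∆* replicate 2. The C-starting share of the lysine reads was 28.6 and 13.6% in *paf1∆*, 39.8 and 43.5% in *rtf1∆*, and 29.4 and 16.8% in wild type. It was highest in *rtf1∆*, while *paf1∆* and wild type overlapped and each had 1 library near 29% and 1 well below. Although tRNA-Lys(CUU) has 14 of the 21 lysine genes, 66.7%, it had fewer reads than the 2 tRNA-Lys(UUU) sequences summed in all 6 libraries. Reads that match both sequences may be in that sum more than once, as their placement is not given. The lysine shares and ratios rest on the same sum. In *rtf1∆* tRNA-Lys(CUU) had 13071 and 8845 reads, above sequence 1-1 (9969 and 5667) and sequence 1-3 (9812 and 5816) taken singly. In *paf1∆* and wild type it was below each of them. The change of the log2 ratio of tRNA-Lys(CUU) to tRNA-Lys(UUU) was -0.21 in *paf1∆* against wild type (SE 0.67, edgeR adjusted p = 0.765). In *rtf1∆* against wild type it was 1.30 (SE 0.49), with an adjusted p of 0.339. Against the wild type library of the same named set alone, replicate 2, it was 1.82, and without wild type replicate 2 it was 0.78. The change of the glutamate ratio in *rtf1∆* was -0.88 against replicate 2 alone and -0.19 without it. For the glutamine ratio these values were -0.33 and -0.17. With 1 wild type library the fit has no wild type spread, so no p-value is given for these values.

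**Figure D4:**
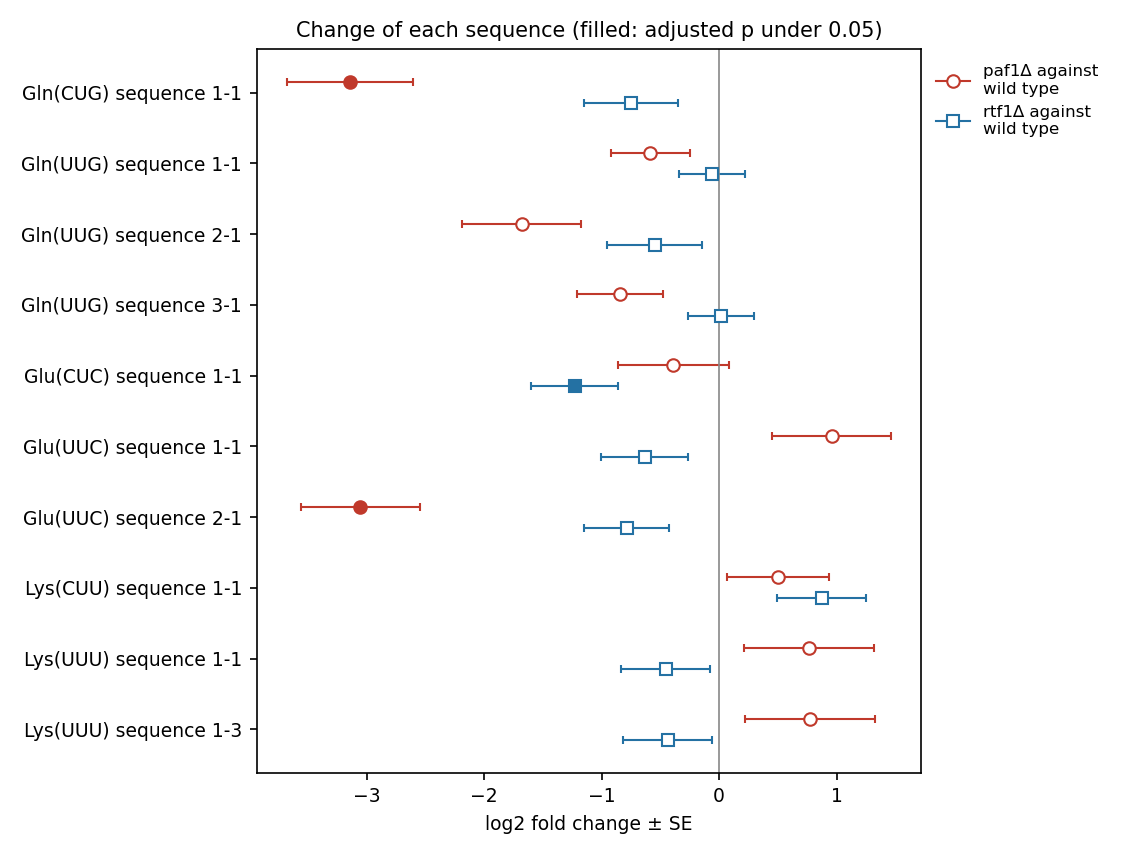
Log2 fold change with its SE for the 10 sequences in *paf1∆* against wild type (circles) and *rtf1∆* against wild type (squares), both from 2 libraries against 2, with filled symbols for an edgeR adjusted p under 0.05. tRNA-Gln(CUG) at -3.14 and tRNA-Glu(UUC) sequence 2-1 at -3.05 are filled for *paf1∆*, and tRNA-Glu(CUC) at -1.23 for *rtf1∆*.

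The balance of both anticodons was set beside the 6 other pairs of a U-starting and a C-starting anticodon in the same codon box, those of Arg, Gly, Leu, Ser, Thr and Val. In *paf1∆* against wild type 1 of the 9 pairs (11.1%) was called, and it was none of the 3 described here. This was tRNA-Arg(CCU)/tRNA-Arg(UCU), with a change of the log2 ratio of -3.81 (SE 0.61, edgeR adjusted p = 0.000348). The change was negative in all 3 of the glutamine, glutamate and lysine pairs and in 4 of the 6 others, with medians of -0.53 and -0.65. In *rtf1∆* against wild type edgeR called 0 of 9 pairs, and 1, the lysine pair, had an unadjusted p under 0.05. DESeq2 was not run on the ratios, and limma on the log2 ratios gave an adjusted p of 0.339 for the lysine pair.

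Both comparisons share the wild type libraries, so the deletions were also compared with each other, a comparison added after the data were seen. The log2 ratio of tRNA-Gln(CUG) to tRNA-Gln(UUG) was lower in *paf1∆* than in *rtf1∆* by a change of -1.35 (SE 0.30, edgeR adjusted p = 0.0274), and both *paf1∆* libraries were below both *rtf1∆* libraries. It was 1 of 4 pairs called among the 9 (44.4%), all lower in *paf1∆*. Without *rtf1∆* replicate 1 (-1.39, adjusted p = 0.207) or replicate 2 (-1.31, adjusted p = 0.168) the call was lost. The lysine ratio differed by -1.51 (SE 0.52, adjusted p = 0.0572) and did not pass the test. Without *paf1∆* replicate 1 it was -2.18 (adjusted p = 0.000315) and without *paf1∆* replicate 2 -0.84 (adjusted p = 0.0376), but the spread then came from the *rtf1∆* libraries alone, and the wide difference between the *paf1∆* libraries, with log2 ratios of -1.32 and -2.67, no longer entered it. Without *rtf1∆* replicate 1 it was -1.62 (adjusted p = 0.221) and without *rtf1∆* replicate 2 -1.40 (adjusted p = 0.285). The glutamate ratio differed by 0.0036 (SE 0.29, adjusted p = 0.991).

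**Figure D5:**
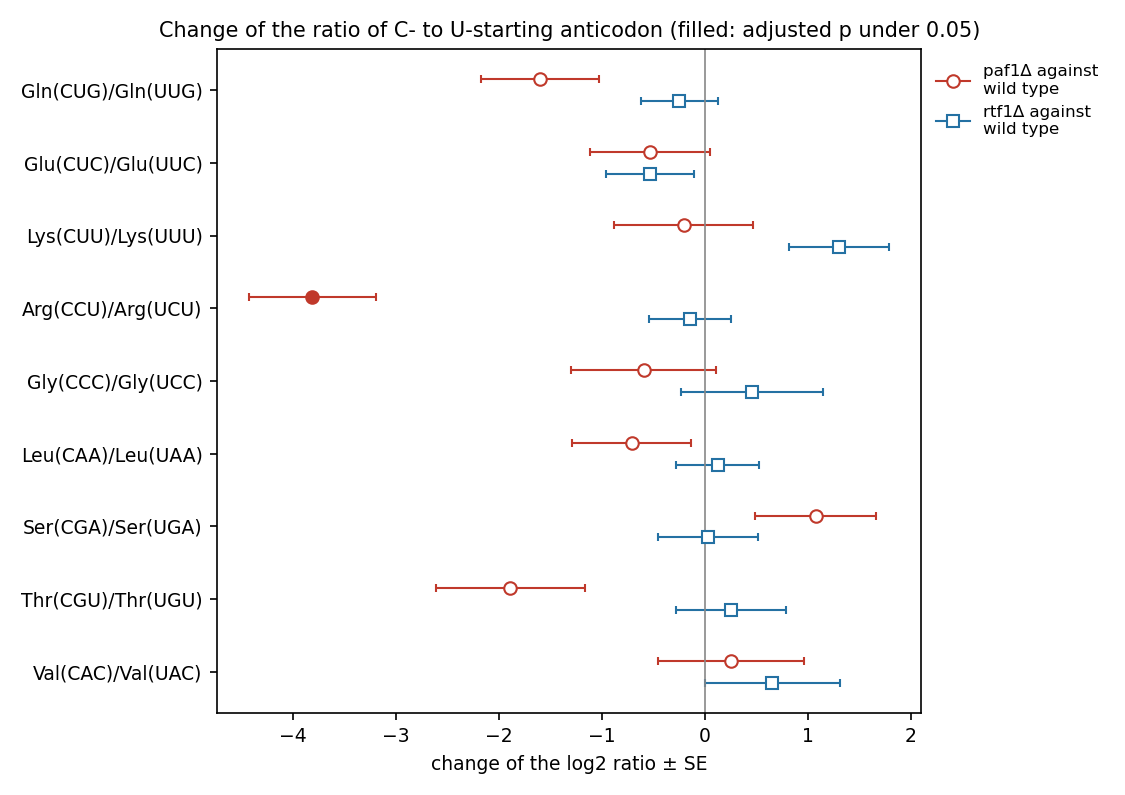
Change of the log2 ratio of the C-starting to the U-starting anticodon, with its SE, in *paf1∆* against wild type (circles) and *rtf1∆* against wild type (squares), for the glutamine, glutamate and lysine pairs at the top and the 6 other pairs below. The arginine pair in *paf1∆*, at -3.81, is the 1 filled symbol, with an edgeR adjusted p under 0.05.

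Ordered by mean level, the 6 anticodon types stood differently in the 3 genotypes. In *paf1∆* the order was tRNA-Lys(UUU) at 62892 ± 26000 CPM, tRNA-Glu(UUC) at 35475 ± 8647, tRNA-Lys(CUU) at 15294 ± 3532, tRNA-Glu(CUC) at 14288 ± 4241, tRNA-Gln(UUG) at 12304 ± 868 and tRNA-Gln(CUG) at 3337 ± 265 (SD, n = 2). The neighbours whose libraries overlapped were tRNA-Lys(CUU) with tRNA-Glu(CUC), and tRNA-Glu(CUC) with tRNA-Gln(UUG). In *rtf1∆* tRNA-Lys(UUU) led at 24540 ± 3038 CPM, followed by tRNA-Gln(UUG) at 22682 ± 414, tRNA-Glu(UUC) at 18067 ± 1271, tRNA-Lys(CUU) at 17441 ± 274, tRNA-Gln(CUG) at 15689 ± 370 and tRNA-Glu(CUC) at 7199 ± 260 (SD, n = 2). There tRNA-Lys(UUU) overlapped with tRNA-Gln(UUG), and tRNA-Glu(UUC) with tRNA-Lys(CUU). In wild type tRNA-Lys(UUU) stood at 33423 ± 10479 CPM, tRNA-Gln(UUG) at 31497 ± 12277, tRNA-Glu(UUC) at 29416 ± 6205, tRNA-Gln(CUG) at 26330 ± 12060, tRNA-Glu(CUC) at 16883 ± 2128 and tRNA-Lys(CUU) at 9520 ± 1832 (SD, n = 2). Each of the first 5 overlapped with its neighbour, and tRNA-Lys(CUU) lay below the rest. The order is by reads on types of 72 or 73 bases, and the reference of tRNA-Lys(UUU) also holds the intron. As the sum of its 2 sequences, tRNA-Lys(UUU) had the highest mean in all 3 genotypes. Reads that match both may be in that sum more than once, as their placement is not given. Sequence 1-1 alone had means of 31457 CPM in *paf1∆*, 12250 in *rtf1∆* and 16778 in wild type, which would not lead in any genotype. The lowest was a C-starting type in each, a different one every time. Together the 10 sequences took 13.1 and 14.5% of the aligned reads in *paf1∆*, 9.10 and 10.3% in *rtf1∆*, and 15.8 and 16.9% in wild type.

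The pattern over the 6 libraries was compared between anticodon types as the root mean square difference of centred log2(CPM + 1) values, where a smaller value means more alike, among 36 other types outside the 6. The nearest to tRNA-Gln(CUG) was tRNA-Ile(AAU), at 0.547, and the nearest to tRNA-Gln(UUG) was tRNA-Asp(GUC), at 0.200. For tRNA-Glu(CUC) it was tRNA-Val(UAC), at 0.503, and for tRNA-Glu(UUC) tRNA-Val(AAC), at 0.293. For tRNA-Lys(CUU) it was tRNA-Ala(UGC), at 0.204, and for tRNA-Lys(UUU) tRNA-Arg(CCG), at 0.411. Between both glutamate anticodons the difference was 0.323, and between both glutamine anticodons it was 0.711. tRNA-Gln(CUG) had the least close neighbour of the 6, and its median difference over the 36 types, 1.36, was also the largest.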

How the data were processed

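tRNA-HySeq libraries of *paf1∆*, *rtf1∆* and wild type cells (2 each) were grouped and numbered by their labels; the file names number the *rtf1∆* replicates the other way round. On Galaxy, the authors removed adapters and low-quality bases, aligned to the set of unique yeast tRNAs and deposited, from IdxStats, the unnormalized read count of each sequence, with reads aligned to none. The submitters' processing notes name Bowtie and SAMtools; versions and the genome build are not given in the sources used here.

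Each comparison used its 4 libraries in edgeR 4.0.16 (R 4.3.3) with TMM scaling, at least 10 counts in at least 2 libraries (which removed 0 sequences) and two-sided quasi-likelihood tests, Benjamini-Hochberg adjusted at 0.05. Amino acid totals and anticodon types were tested on summed counts, and anticodon ratios as the interaction of anticodon and genotype over 9 pairs, with a term per library. The SE was taken as |log2 fold change|/√F. An exact permutation test of 2 libraries against 2 cannot go below p = 0.333 and was not used. Alternatives were other scalings, no filter on low counts, DESeq2 1.42.0, limma 3.58.1, all 6 libraries together, a replicate block and each library left out. Without the filter the fit was the main fit again. The tests were tested on simulated data.

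The members were the 10 sequences named for the 3 amino acids. Other pairs were named where past the threshold with the largest change, and for each anticodon type the 1 other type most like it. Members and lists were chosen with earlier results of these data known. Sequences are from RefSeq (R64), with anticodons found by their stem.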

Additional observations from a re-analysis of the deposited data

How the results depend on the processing

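Each member had at least 812 reads in every library, and each genotype had 2 libraries. The number of the 10 sequences called in *paf1∆* against wild type was 5 by DESeq2 and 1 with counts summed by anticodon, against 2. In *rtf1∆* against wild type it was 0 under total counts, upper-quartile scaling and limma-voom, against 1. It was also 0 with all 6 libraries in one fit, under the replicate block and with summed anticodons. Both numbers also changed with a library left out. Of the amino acid totals, 0 were called in *paf1∆* under the replicate block (glutamine -1.99, edgeR adjusted p = 0.120), against 1. In *rtf1∆* 1 was called under DESeq size factors, total counts, DESeq2 and limma-voom, against 0. Leaving out a library changed the number of totals called in both comparisons as well. The shares over all sequences or totals are not given here for these settings. These counts are therefore no result about the members. The causes were not tested. tRNA-Gln(CUG) and tRNA-Glu(UUC) sequence 2-1 passed in *paf1∆* under all 8 settings that tested single sequences with every library. The setting without the count filter repeated the main fit, because the filter removed 0 sequences. Counts summed by anticodon also kept every library. There tRNA-Gln(CUG) had a log2 fold change of -3.14 (edgeR adjusted p = 0.0225) and tRNA-Glu(UUC) one of 0.12 (adjusted p = 0.842).

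The glutamine ratio in *paf1∆* passed in the fit of all 6 libraries (-1.60, adjusted p = 0.0152) and under the replicate block (-1.60, adjusted p = 0.0228), but not by limma (-1.60, adjusted p = 0.0532), with the most counted sequences (-1.46, adjusted p = 0.0555) or by edgeR's diffSpliceDGE (-1.62, adjusted p = 0.527). With a library left out it lay between -1.75 and -1.45, the glutamate ratio between -0.88 and -0.19, and the lysine ratio between -0.88 and 0.47, positive without *paf1∆* replicate 2 (0.47) or wild type replicate 1 (0.32). In *rtf1∆* the ranges were -0.33 to -0.17, -0.88 to -0.19 and 0.78 to 1.82. Between *paf1∆* and *rtf1∆* the glutamate ratio lay between -0.053 and 0.060 with a library left out, and with the most counted sequence of each anticodon it was -0.76 (adjusted p = 0.0287). The glutamine ratio there lost its call under the replicate block (adjusted p = 0.0966) and diffSpliceDGE (adjusted p = 0.143). The lysine ratio had an adjusted p of 0.165 under the block. In both comparisons the diffSpliceDGE p was that of the C-starting type within its amino acid, adjusted over anticodon types and not over the 9 pairs.

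Values near 0 changed sign. The glutamate total in *paf1∆* was 0.077 with DESeq size factors and DESeq2, 0.10 in the fit of all 6 libraries and -0.44 to 0.34 with a library left out. tRNA-Gln(UUG) sequence 3-1 in *rtf1∆* was -0.044 with DESeq size factors and DESeq2, -0.28 with total counts and -0.065 to 0.12 with a library left out, and sequence 1-1 lay between -0.13 and 0.039. The lysine total in *rtf1∆* was 0.069 by limma-voom and -0.20 to 0.19 with a library left out. tRNA-Glu(CUC) in *paf1∆* lay between -0.83 and 0.031.

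DESeq size factors moved the median of all sequences in *paf1∆* by 0.14 and upper-quartile scaling by -0.11, with 9 higher and 5 lower calls, or 9 and 12, against 6 and 7 by TMM. Total counts moved it by -0.31 in *rtf1∆*. Libraries of the same number in *paf1∆* and wild type deviated together with r = 0.0999, and in *rtf1∆* and wild type with r = 0.253, across 70 sequences, which with 2 numbers is no pairing.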
